A study of Mus musculus with 144 samples.

Results

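Hepatokines and the insulin-like growth factor (IGF) axis were followed through 10 named genes: Igf1, Igfals, Igfbp1, Igfbp2, Igfbp4, Fgf21, Gdf15, Inhbe, Fst and Lepr. They were picked by symbol from 24421 gene symbols, and where a symbol had several transcript rows, the row with the largest mean over all libraries was kept. RNA had been sequenced from male C57BL/6J mice on normal chow, either WT controls or animals labelled REV-ERB a/b double knockout, with the deletion placed in adult hepatocytes by the study design. REV-ERBα and REV-ERBβ are haem-binding repressors of the circadian clock. Whole liver came from mice on ad libitum or reverse-phase feeding (the labels give no hours of food access) at ZT 1, 4, 7, 10, 13, 16, 19 and 22, where ZT is zeitgeber time in hours and lights come on at 0. Endothelial cells and Kupffer cells, the resident liver macrophages, had been isolated from both genotypes at ZT 4, 10, 16 and 22. Every group held 3 libraries, giving 48 libraries per feeding schedule and 24 per isolated cell type. Mouse ages, the means of deletion and the feeding of the mice used for cell isolation are not stated. No label says that the libraries of a group came from separate animals, so the p-values measure only the spread between these libraries.

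Hepatokines are proteins that the liver secretes into blood and that act on other organs. Liver is the main source of circulating IGF-1, which growth hormone induces and which travels bound to IGF-binding proteins and, in a ternary complex, to the acid-labile subunit encoded by Igfals. Fgf21 and Igfbp1 are known to respond to fasting and feeding, Igfbp1 being strongly repressed by insulin, and Fgf21 and Gdf15 also respond to cellular stress. Inhbe encodes the βE subunit of activin, and follistatin, the product of Fst, binds and neutralises activins.

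The promoters of 4 genes are shown because the results below turn on their daily timing. Each run holds the 250 bases before a RefSeq start site, 5′ to 3′ on the gene's strand, in build GRCm38.p6. Capitals mark matches, on either strand, to 4 short motifs: the insulin response sequence CAAAACAA, the CEBP-ATF response element TGATGNAA, the E-box CACGTG and the nuclear receptor motif AGGTCA.
Igfbp1 (chr11:7197537-7197786, plus strand): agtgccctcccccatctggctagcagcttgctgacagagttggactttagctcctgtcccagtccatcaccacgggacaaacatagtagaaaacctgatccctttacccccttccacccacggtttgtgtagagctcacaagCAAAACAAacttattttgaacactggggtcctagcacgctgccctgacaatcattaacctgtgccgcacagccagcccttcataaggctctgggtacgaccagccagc
Igfbp2 (chr1:72824230-72824479, plus strand): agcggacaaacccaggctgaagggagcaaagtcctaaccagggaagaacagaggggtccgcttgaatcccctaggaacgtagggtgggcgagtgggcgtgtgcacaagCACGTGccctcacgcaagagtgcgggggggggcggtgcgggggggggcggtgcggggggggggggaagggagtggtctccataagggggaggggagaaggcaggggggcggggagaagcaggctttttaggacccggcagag
Fgf21 (chr7:45615491-45615740, minus strand): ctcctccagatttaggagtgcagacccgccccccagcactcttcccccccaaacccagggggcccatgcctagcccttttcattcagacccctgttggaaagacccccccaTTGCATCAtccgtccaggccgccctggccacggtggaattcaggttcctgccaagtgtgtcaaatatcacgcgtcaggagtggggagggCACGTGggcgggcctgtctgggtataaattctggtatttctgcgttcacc
Inhbe (chr10:127351849-127352098, minus strand): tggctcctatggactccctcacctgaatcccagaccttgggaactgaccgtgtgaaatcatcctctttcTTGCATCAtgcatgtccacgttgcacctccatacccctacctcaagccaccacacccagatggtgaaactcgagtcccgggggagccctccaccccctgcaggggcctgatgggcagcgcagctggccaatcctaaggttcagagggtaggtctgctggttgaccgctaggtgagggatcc
The Igfbp2 run belongs to the first of 2 start sites in the table. No matches overlapped each other in these runs.

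The capitals in the Igfbp1 run are the insulin response letters, which began 108 bases before the start site and which 2.21% of 32851 start sites of 27025 genes held in a window of the same length. Fgf21 and Inhbe both held TTGCATCA, a reverse-strand match to TGATGNAA, 139 and 181 bases before their start sites, against 3.45% of all start sites. Fgf21 also held an E-box 50 bases before its start site, and Igfbp2 held one at 142 bases, against 6.02% of all start sites. The motif AGGTCA, held by 14% of start sites, was found in none of these 4 runs, and it was present at a start site of Igf1, Igfals and Gdf15. The insulin response letters were also found 114 bases before a start site of Lepr, and an E-box 83 bases before a start site of Gdf15. Igfbp4 held none of the 4 motifs. Of the 10 genes, 9 had an entry in the promoter table. These are matches of letters only.

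Total counts per library, over 1 transcript per gene, were 4567612 to 10364900.5 in the ad libitum table and 13117814 to 26191933 in the reverse-phase table. The low-count genes thus had more reads under the second schedule, but not always a smaller spread between libraries. The cell tables were deposited after quantile normalisation and their depth is unknown. The targeted transcripts Nr1d1 and Nr1d2 were higher in the libraries labelled knockout, by 1.74 ± 0.15 and 1.10 ± 0.10 (log2, SE) with food ad libitum and by 1.83 ± 0.15 and 0.80 ± 0.08 on the reverse-phase schedule. Whole transcripts were counted and no source used here names the exons deleted, so this does not check the deletion. Nr1d1's daily fold range was 68.9 in controls and 5.67 in knockout libraries ad libitum. A few libraries stood apart from the mean of their own group by a trend with transcript length, by spread or, in 1 case, by a 45S ribosomal RNA share of 12.3%. Set against the mean of the whole table, the libraries with a length trend were ad libitum control ZT 16 replicate 2 and, in Kupffer cells at ZT 4, replicates 2 and 3 of both genotypes. Those apart from their own group were 4 ad libitum (control ZT 16 replicates 2 and 3, control ZT 22 replicate 2 and knockout ZT 16 replicate 3), 1 under reverse-phase feeding (knockout ZT 10 replicate 3), 2 endothelial (knockout ZT 22 replicates 2 and 3) and 2 Kupffer (replicate 1 of each genotype at ZT 4). Calls lost or gained without them are stated below.

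Marker genes of other liver cells moved with genotype in whole liver. Of 13 stellate cell markers, 12 were higher in the knockout ad libitum and 10 in reverse-phase liver, and of 21 endothelial markers 15 and 9 were higher, with none lower. Over all genes 13.5% were called higher and 13.7% lower ad libitum, and 12.7% and 14.1% in reverse-phase liver. The summed stellate markers ran from 232 to 568 normalised CPM (counts scaled to library size) in ad libitum controls, with a median of 356, and from 324 to 611 in the knockout, with a median of 505. The summed endothelial markers ran from 213 to 470 in controls, with a median of 303, and from 252 to 469 in the knockout, with a median of 378. None of 15 Kupffer markers passed. Among 13 hepatocyte markers 6 were higher and 2 lower ad libitum, and 3 higher and 1 lower under reverse-phase feeding, and Alb, the hepatocyte albumin gene, fell by 0.36 ± 0.05 and by 0.42 ± 0.06 (log2, SE). The part of these shifts in the results below was not tested. In whole tissue, fewer cells of a type and less RNA per cell cannot be told apart.

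Per kilobase of transcript, Igfbp4 was the most abundant of the 10 RNAs in ad libitum control liver, at 663 ± 161 normalised CPM per kilobase (SD, n = 24). Igfbp2 followed at 268 ± 78.8, then Igf1 at 84.2 ± 13.9 and Igfals at 70.4 ± 17.0, and the last 2 lay within 1 SD of each other. Inhbe had 27.7 ± 7.04, Igfbp1 14.1 ± 11.6 and Gdf15 3.09 ± 1.93. The scarcest were Fst at 0.863 ± 0.442, Fgf21 at 0.689 ± 0.872 and Lepr at 0.417 ± 0.180, whose spreads overlapped. The binding protein genes Igfbp4 and Igfbp2 thus held the first 2 ranks, and Fgf21, Fst and Lepr rested on few reads, with 0 to 26 counts per library for Fgf21, 2 to 48 for Fst and 4 to 34 for Lepr. Fgf21 had no count in 2 control and 3 knockout libraries, where 3 counts, the limit a count of 0 allows, would equal 0.334 to 0.479 normalised CPM.

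**Figure D1:**
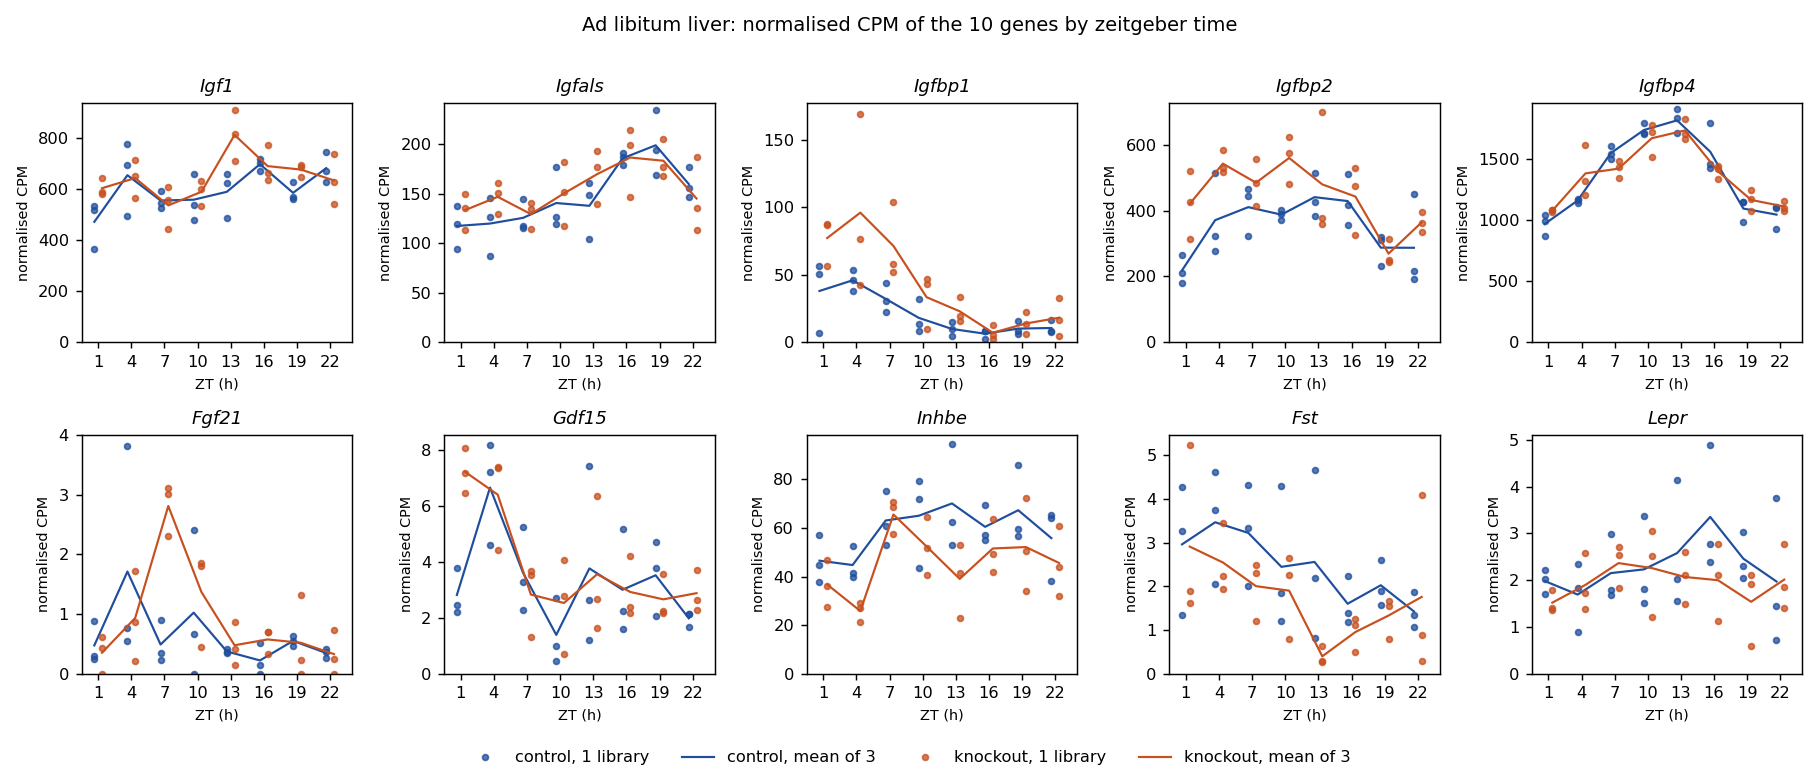
Normalised CPM of the 10 genes (y axis, from 0) against zeitgeber time in hours (x axis) in ad libitum liver, with 1 point per library and lines through the means of 3 libraries for control and knockout. Igfbp1 peaked in the light phase in both genotypes, Igfbp4 followed a smooth daily curve from about 968 to 1817 in controls, and the 3 knockout values of Fgf21 at ZT 7 lay above all controls of that time.

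The first comparison was of genotypes over the day: the difference in the daily mean of log2 expression, from a fit with a 24 h cosine and sine per genotype (edgeR's quasi-likelihood test, Benjamini-Hochberg adjustment over all genes tested, called at an adjusted p under 0.05). All 10 genes passed the filter on low counts in both liver tables. Under ad libitum feeding 4 of the 10 genes were called, Igfbp1 and Igfbp2 higher and Fst and Inhbe lower in the knockout, beside 27.2% of 12569 genes tested. Of all genes, 13.5% were called higher and 13.7% lower. Under reverse-phase feeding 2 were called, Igfbp2 higher and Fst lower, beside 26.8% of 13838 genes, of which 12.7% of those tested were higher and 14.1% lower. With 10 genes, neither count stood far from those shares. None of the 10 differed between schedules in its genotype effect (joint edgeR fit of both liver tables, adjusted p of at least 0.768), where 0.199% of 13566 genes were called, 0.0885% higher and 0.111% lower in the reverse-phase table. The count was 0 in DESeq2 too, and 0 at an unadjusted p under 0.05.

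**Figure D2:**
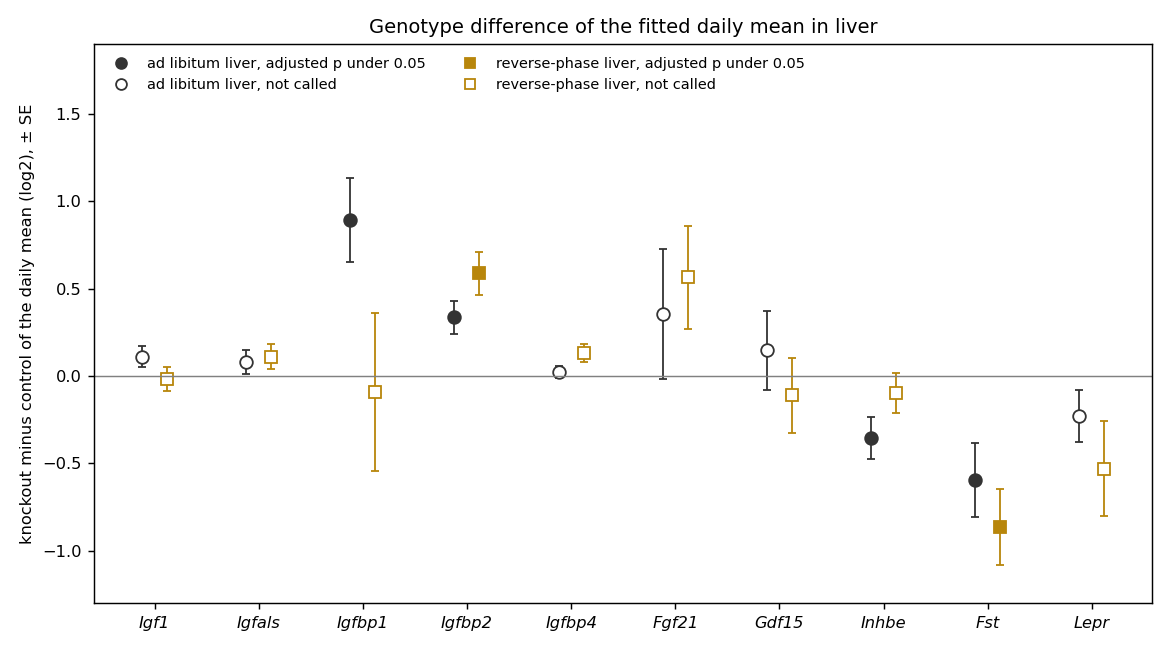
Knockout minus control of the daily mean of log2 expression (y axis, ± SE) for each of the 10 genes (x axis) under ad libitum and reverse-phase feeding, with called differences marked. Igfbp2 lay above 0 and Fst below 0 under both schedules, while Igfbp1 was at 0.89 ad libitum and at -0.09 under reverse-phase feeding.

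The second comparison was of daily rhythm, tested jointly on cosine and sine. Ad libitum, 4 of the 10 genes had a called rhythm in controls (48.1% of all genes tested) and 6 in the knockout (44.1%). Under reverse-phase feeding 5 were called in controls (41.2%) and 5 in the knockout (36.8%). A difference in rhythm between the genotypes was called for none of the 10 ad libitum (3.37% of all genes) and for 1, Fgf21, under reverse-phase feeding (1.51%). At unadjusted p under 0.05 the ad libitum comparison held 1 of the 10, Igfbp4 with an edgeR p of 0.0127, and DESeq2 called 0. At single times, over the 10 genes and 8 ZTs, 4 genotype differences were called ad libitum (4.36% of all pairs of gene and ZT) and 2 under reverse-phase feeding (3.34%). Separation of the 3 knockout from the 3 control libraries at a ZT is given below as a description, and not every such ZT is named. Among those not fully named, the knockout lay wholly above at 2 ZTs for Gdf15 ad libitum. Under reverse-phase feeding it did so at 2 ZTs for Igfbp1 and at 1 each for Igfbp4 and Igfals. It lay wholly below at 1 ZT each for Inhbe and Lepr. Over all pairs of gene and ZT, the knockout lay wholly above in 10.3% and wholly below in 10.6% ad libitum, and in 9.16% and 9.9% under reverse-phase feeding.

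Igfbp1, which encodes the acutely regulated binding protein that insulin represses, was higher in knockout liver ad libitum and cycled strongly in both genotypes (NM_008341, mm9 chr11:7097790-7102549, plus strand). Its lowest, median and highest values were 2.52, 13.97 and 56.3 normalised CPM in controls and 2.66, 33.1 and 169 in the knockout (n = 24 each). At ZT 1 the controls had 6.59, 56.3 and 50.8, and the knockout 87.6, 87.1 and 56.7. All 3 knockout libraries lay above all 3 controls at ZT 1, 7 and 13. The daily mean rose by 0.89 ± 0.24 (log2, SE), with an edgeR adjusted p of 0.00394. The fitted peak was at ZT 4.29 ± 0.67 (SE) with a 6.96-fold range in controls (adjusted p = 4.83e-05), and at ZT 4.69 ± 0.52 with a 10.1-fold range in the knockout (7.74e-07). Peaks and ranges of the genotypes were not shown to differ (edgeR adjusted p = 0.907).

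Under reverse-phase feeding Igfbp1 was at its lowest at ZT 1, where ad libitum values were near their highest. The ZT 1 libraries had 1.16, 1.63 and 1.32 normalised CPM in controls and 2.23, 2.28 and 4.74 in the knockout, which did not overlap. At ZT 13 the controls had 112, 200 and 106 and the knockout 50.8, 109 and 85.3. At ZT 22 a single control library, replicate 2, had 495 beside 30.0 and 49.9. The genotype effect on the daily mean was -0.09 ± 0.45 (log2, SE, edgeR adjusted p = 0.908), and 0.55 with an adjusted p of 0.325 without that library. A rhythm in controls was not called (adjusted p = 0.122), and was called without that library, with a log2 range of 3.002 and an adjusted p of 0.0102. A rhythm in the knockout was not called in edgeR either, but was called in DESeq2, with a log2 range of 2.90 and an adjusted p of 0.0436. The rhythm of Igfbp1 differed between the feeding schedules in controls (adjusted p = 0.00037) and in the knockout (1.8e-05), by the joint fit.

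Igfbp2, a binding protein abundant in fetal and fasted liver, was the gene of the 10 that was higher in the knockout under both schedules (NM_008342, mm9 chr1:72871054-72899045, plus strand). Ad libitum it ran from 179 to 515 normalised CPM in controls, with a median of 364, and from 245 to 700 in the knockout, with a median of 450. Under reverse-phase feeding it ran from 214 to 939 in controls, with a median of 424, and from 390 to 1246 in the knockout, with a median of 661. The daily mean rose by 0.33 ± 0.10 (log2, SE, edgeR adjusted p = 0.00706) ad libitum and by 0.59 ± 0.12 (0.000193) in reverse-phase liver. The groups overlapped at most times and separated at ZT 1, 4 and 10 ad libitum and at ZT 7, 10 and 16 under reverse-phase feeding.

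At single times, the Igfbp2 difference was called at ZT 1 ad libitum, where controls had 264, 212 and 179 normalised CPM and the knockout 315, 521 and 425. The log2 difference was 0.94 ± 0.27 (SE, edgeR adjusted p = 0.0466), a call lost in 20 of 48 fits without 1 library and without the low-count filter (0.0778). Under reverse-phase feeding it was called at ZT 10, where controls had 398, 442 and 548 and the knockout 805, 988 and 1246. The log2 difference there was 1.13 ± 0.32 (adjusted p = 0.0356), and 0.95 with an adjusted p of 0.151 without knockout replicate 3, the highest of the 3 and the library that stood apart. It was also lost without control replicate 1 (0.113), 2 (0.127) or 3 (0.0691), without knockout replicate 2 (0.0667) and without the low-count filter (0.0566). The fitted rhythm peaked at ZT 11.3 ± 0.95 with a 1.74-fold range in ad libitum controls (adjusted p = 0.00354) and at ZT 8.08 ± 0.99 with a 1.70-fold range in the knockout (0.00585). Under reverse-phase feeding a rhythm was called in the knockout alone, with a peak at ZT 12.4 ± 1.17 (adjusted p = 0.0269, and 0.067 without the library that stood apart), but the genotypes' rhythms of Igfbp2 were not shown to differ (adjusted p = 0.446).

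Igfbp4, an inhibitory binding protein that the protease PAPP-A cleaves, had the most regular daily curve of the 10 genes ad libitum (NM_010517, mm9 chr11:98902574-98913957, plus strand). Control means ran from 968 ± 87.5 normalised CPM (SD, n = 3) at ZT 1 to 1817 ± 99.6 at ZT 13, and knockout means from 1078 ± 12.04 to 1735 ± 86.2. The fitted peak was at ZT 11.5 ± 0.29 with a 1.91-fold range in controls (edgeR adjusted p = 1.29e-14) and at ZT 10.9 ± 0.41 with a 1.58-fold range in the knockout (1.57e-09). The knockout libraries were all above controls at ZT 1 and 4 and all below at ZT 7, with no difference in the daily mean called (0.02, adjusted p = 0.677). Under reverse-phase feeding the control range of Igfbp4 was 1.28-fold with a peak at ZT 1.75 ± 1.11 (adjusted p = 0.0175), and no knockout rhythm was called (1.08-fold, 0.674). The genotype effect under that schedule was 0.13 ± 0.05 (adjusted p = 0.059), which passed in DESeq2 (0.0448) and in 13 of 48 fits without 1 library.

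Igf1, the growth hormone-induced ligand of the axis, had the smallest daily range in ad libitum control liver (NM_010512, mm9 chr10:87321797-87399792, plus strand). It ran from 365 to 778 normalised CPM in controls, with a median of 608, and from 443 to 910 in the knockout, with a median of 640. At ZT 13 the controls had 657, 489 and 622 and the knockout 817, 710 and 910, a log2 difference of 0.46 ± 0.14 (SE, edgeR adjusted p = 0.0315). The groups also separated at ZT 1 and 19, with the knockout higher, yet the daily mean was not called (0.11 ± 0.06, adjusted p = 0.187). The ZT 13 call was lost without control replicate 2 (adjusted p = 0.246), knockout replicate 1 (0.0721) or knockout replicate 3 (0.152). Under reverse-phase feeding the Igf1 daily mean was -0.02 from control, no ZT separated the groups, and a 1.43-fold rhythm with a peak at ZT 9.53 ± 1.02 was called in the knockout (0.00932), while control values gave 1.31-fold (0.0571), which was called in DESeq2 (0.0393), with its size factors (0.0487), at a mean of at least 1 CPM (0.0421) and in 13 of 48 fits without 1 library.

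Igfals, the acid-labile subunit that lengthens the life of IGF complexes in blood, was rhythmic in both genotypes under both schedules (NM_008340, mm9 chr17:25015715-25018953, plus strand). Ad libitum it peaked at ZT 17.4 ± 0.76 with a 1.60-fold range in controls (edgeR adjusted p = 0.000226) and at ZT 16.3 ± 1.09 with a 1.39-fold range in the knockout (0.013). Under reverse-phase feeding it peaked at ZT 6.16 ± 0.99 with a 1.45-fold range in controls (0.00678) and at ZT 7.60 ± 0.77 with a 1.63-fold range in the knockout (0.000533). The highest group means were 199 ± 33.1 normalised CPM (SD, n = 3) at ZT 19 in ad libitum controls and 167 ± 39.3 at ZT 7 in reverse-phase controls. The peak of Igfals thus lay in the dark phase under one schedule and in the light phase under the other, in both genotypes. Genotype effects on its daily mean were 0.08 and 0.11 (log2) and neither was called (adjusted p of 0.416 ad libitum). Nubp2 lies 602 bases from Igfals on the opposite strand, without overlap in mm9.

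**Figure D3:**
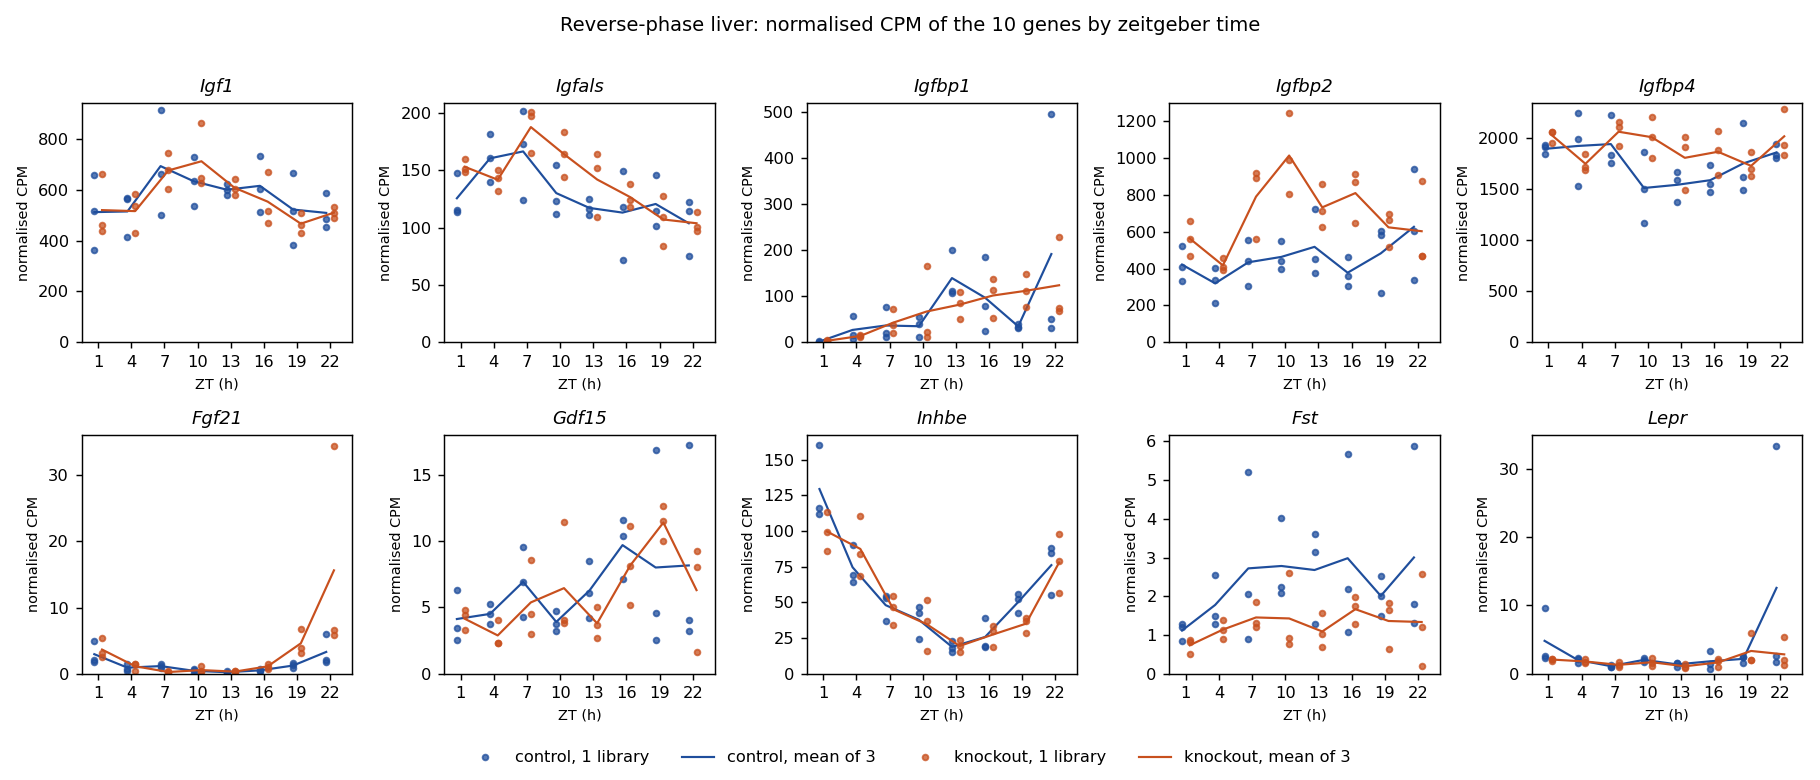
Normalised CPM of the 10 genes (y axis, from 0) against zeitgeber time in hours (x axis) in reverse-phase liver, with 1 point per library and lines through the means of 3 libraries for control and knockout. Inhbe had a mean of 129 at ZT 1 and 18.8 at ZT 13 in controls, Fgf21 reached 34.4 in 1 knockout library at ZT 22, and control replicate 2 at ZT 22 was the highest point for Igfbp1 and Lepr.

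Fgf21, the fasting- and stress-induced hormone that signals through FGFR1 and β-Klotho, was the gene of the 10 whose daily rhythm differed between genotypes, under reverse-phase feeding (NM_020013, mm9 chr7:52869260-52870860, minus strand). Under reverse-phase feeding the ZT 22 libraries had 2.07, 6.04 and 1.76 normalised CPM in controls and 34.4, 5.86 and 6.58 in the knockout. At ZT 19 the controls had 0.789, 1.26 and 1.64 and the knockout 3.85, 6.77 and 3.15, and at ZT 7 the order turned, with 1.48, 1.15 and 0.827 in controls and 0.205, 0.417 and 0.135 in the knockout. The knockout lay wholly above controls at ZT 16 and 19 and wholly below at ZT 7, and at ZT 22 1 control library overlapped it.

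The fitted Fgf21 range was 9.42-fold with a peak at ZT 0.105 ± 0.67 (SE) in controls (edgeR adjusted p = 6.04e-05) and 43.8-fold with a peak at ZT 21.9 ± 0.36 in the knockout (2.29e-10). The rhythms differed with an adjusted p of 0.0367 and a difference in log2 range of 2.22. That call was lost in 14 of 48 fits without 1 library, at an adjusted p of at most 0.0911, and the difference in log2 range was 1.18 (0.076) without knockout ZT 22 replicate 1. It was also lost with a second harmonic (0.111) and without the filter on low counts (0.052). At ZT 22 the log2 difference was 2.29 ± 0.59 (adjusted p = 0.0157), and 0.96 (0.51) without knockout replicate 1. It was also not called without control replicate 1 (0.0992) or 3 (0.124) of that ZT. The Fgf21 daily mean was 0.56 ± 0.29 above control and was not called (0.157).

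Ad libitum, Fgf21 was near the limit of detection at most times. At ZT 7 the controls had 0.223, 0.892 and 0.352 normalised CPM and the knockout 3.12, 3.02 and 2.30. The log2 difference at ZT 7 was 2.53 ± 0.78 (SE, edgeR adjusted p = 0.0474), higher in 3 of 3 libraries. A rhythm was called in the knockout, 6.61-fold with a peak at ZT 7.88 ± 0.86 (adjusted p = 0.00135), and not in controls (3.57-fold, 0.101), but the Fgf21 rhythms were not shown to differ ad libitum (0.683). The ZT 7 call was lost in 30 of 48 fits without 1 library, with adjusted p-values up to 0.268 (without control ZT 7 replicate 1), in DESeq2 (0.0763) and without the libraries that stood apart (0.0603). The knockout peak of Fgf21 stood at ZT 7.88 ad libitum and at ZT 21.9 under reverse-phase feeding, and the schedules' rhythms differed in the knockout (adjusted p = 5.11e-12) and in controls (0.00925, and 0.456 without replicate 2 of every group).

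Gdf15, a stress-induced hormone that acts on the hindbrain receptor GFRAL, was not called for genotype under either schedule (NM_011819, mm9 chr8:73153293-73155534, minus strand). Ad libitum at ZT 1 the controls had 2.44, 3.78 and 2.22 normalised CPM and the knockout 7.18, 8.05 and 6.46, which did not overlap. Across the day the medians were 2.54 in controls and 3.54 in the knockout, and the daily mean differed by 0.15 (log2, edgeR adjusted p = 0.683). Under reverse-phase feeding the medians were 4.67 and 4.64, and the highest control values, 17.2 and 16.9, were single libraries at ZT 22 and 19. No 24 h rhythm of Gdf15 was called in either table with all libraries, though that of the reverse-phase knockout was called without the library that stood apart (adjusted p = 0.0277), in 4 of 48 fits without 1 library and with a second harmonic (0.0349). With a second harmonic a rhythm was called in controls (adjusted p = 0.0377) and in the knockout (0.00744) ad libitum. The 24 h rhythm of the ad libitum knockout was also called in several fits without 1 library, such as that without knockout ZT 13 replicate 2 (edgeR adjusted p = 0.0115).

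Inhbe, which encodes the activin βE subunit and is expressed mainly in hepatocytes, cycled strongly under reverse-phase feeding in both genotypes (NM_008382, mm9 chr10:126786458-126788828, minus strand). At ZT 1 the controls had 160, 112 and 116 normalised CPM and the knockout 113, 99.2 and 86.3. At ZT 13 the controls had 18.3, 15.0 and 23.2 and the knockout 23.7, 19.5 and 15.2. Every library at ZT 1 was above every library at ZT 13. The range was 4.88-fold with a peak at ZT 1.29 ± 0.39 (SE) in controls (edgeR adjusted p = 7.38e-10) and 4.60-fold with a peak at ZT 1.63 ± 0.40 in the knockout (3e-09).

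Ad libitum, Inhbe was lower in the knockout and no 24 h rhythm was called, though one with a second harmonic was called in the knockout (edgeR adjusted p = 0.0306). It ran from 37.6 to 94.7 normalised CPM in controls, with a median of 57.1, and from 21.3 to 72.2 in the knockout, with a median of 45.3. The daily mean fell by 0.35 ± 0.12 (log2, SE, edgeR adjusted p = 0.0241). At ZT 4 the controls had 52.7, 41.6 and 39.8 and the knockout 26.8, 29.3 and 21.3, and the groups also separated at ZT 13. The control range was 1.45-fold (adjusted p = 0.16), against 4.88-fold under the other schedule, and the rhythms of Inhbe differed between schedules in controls (1.94e-10) and in the knockout (6.21e-09). Under reverse-phase feeding the genotype effect was -0.10 and was not called, and the 2 genotype effects were not shown to differ.

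Fst, which encodes the activin-binding protein follistatin, was lower in the knockout under both schedules (NM_001301375, mm9 chr13:115242470-115249159, minus strand). Its lowest, median and highest values ad libitum were 0.814, 2.03 and 4.66 normalised CPM in controls and 0.274, 1.58 and 5.22 in the knockout. Under reverse-phase feeding they were 0.856, 2.04 and 5.89 in controls and 0.204, 1.21 and 2.61 in the knockout. The daily mean fell by 0.60 ± 0.21 (log2, SE, edgeR adjusted p = 0.0302) ad libitum and by 0.86 ± 0.22 (0.00181) in reverse-phase liver. At ZT 13 ad libitum the controls had 4.66, 2.19 and 0.814 and the knockout 0.297, 0.623 and 0.274, with no overlap, a log2 difference of -2.62 ± 0.78 (adjusted p = 0.0238). The ad libitum Fst effect was no longer called without control replicate 1 at ZT 1 (0.052) or at ZT 13 (0.0616), and the ZT 13 difference was -1.96 (0.186) without that control library, and was not called without knockout replicate 1 (0.0833) or 3 (0.0979) of ZT 13. A rhythm was called in the ad libitum knockout, 3.51-fold with a peak at ZT 2.92 ± 0.92 (0.0027), and not in controls (1.97-fold, 0.112), with no called difference of Fst rhythms (0.474).

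Lepr, the leptin receptor, whose secreted form the liver can release, had few counts in whole liver and 1 exceptional library (NM_001122899, mm9 chr4:101390012-101486272, plus strand, the longest of 3 rows). Ad libitum it ran from 0.713 to 4.90 normalised CPM in controls, with a median of 2.04, and from 0.595 to 3.05 in the knockout, with a median of 1.89. The genotype effect was -0.23 ± 0.15 (log2, SE, edgeR adjusted p = 0.272). Under reverse-phase feeding control ZT 22 replicate 2 had 33.4 beside 1.74 and 2.59, and the next highest control value was 9.55 at ZT 1. With that library the Lepr control rhythm was 5.92-fold with a peak at ZT 22.5 ± 0.72 (adjusted p = 0.00021), and without it the log2 range was 1.21 in place of 2.57 (0.0254). The genotype effect was -0.53 ± 0.27 (0.147) with it and -0.15 (0.604) without it.

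The same library, control ZT 22 replicate 2 under reverse-phase feeding, held the highest control values of Igfbp1 (495 normalised CPM), Igfbp2 (939), Lepr (33.4), Gdf15 (17.2), Fst (5.89) and Fgf21 (6.04). It did not stand apart over all genes by the measures above. In the knockout, ZT 22 replicate 1 held the highest values of Fgf21 (34.4) and Igfbp1 (229). Both libraries were kept in every main result.

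**Figure D4:**
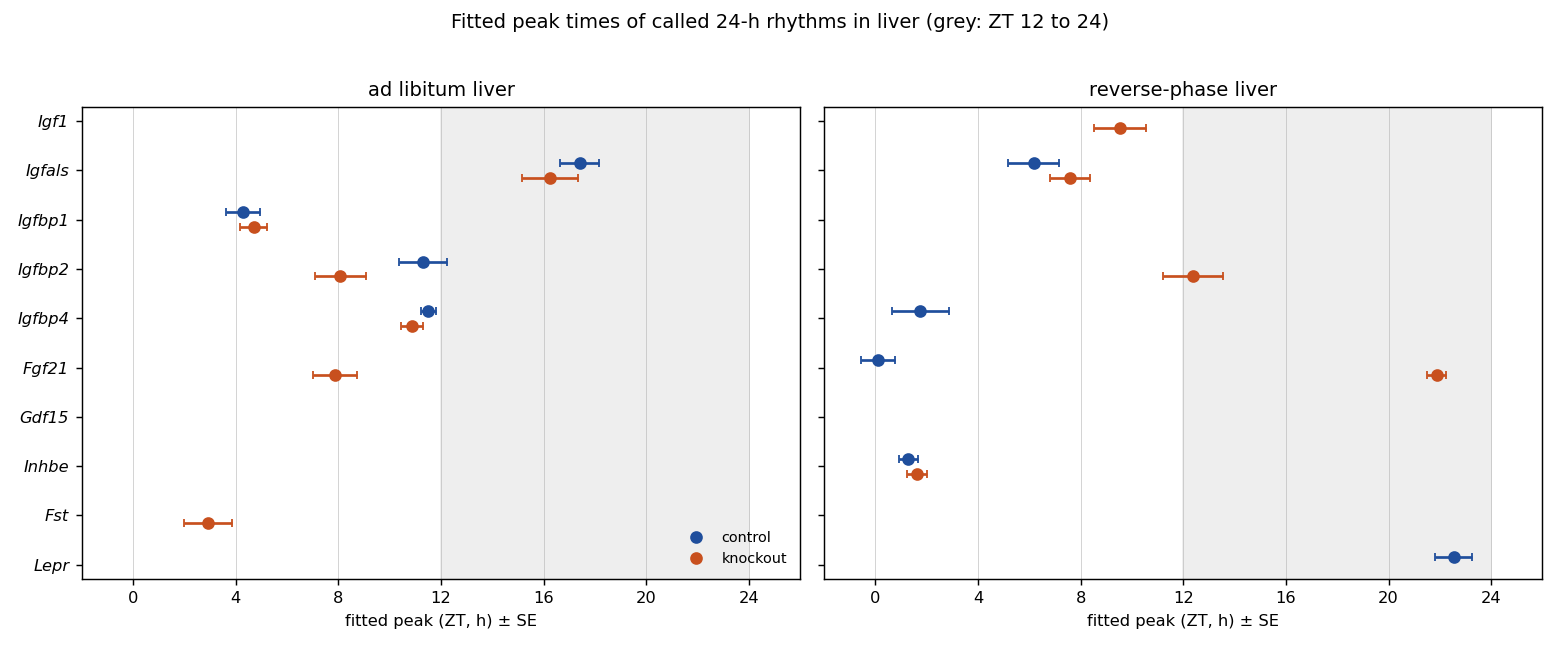
Fitted peak times (x axis, ZT in hours, ± SE) of called 24 h rhythms for each of the 10 genes (y axis) in control and knockout liver, ad libitum and reverse-phase panels side by side, with ZT 12 to 24 shaded grey. Igfals peaked at ZT 17.4 and 16.3 ad libitum and at ZT 6.16 and 7.60 under reverse-phase feeding, and Igfbp1 has points in the ad libitum panel and none in the other.

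The feeding schedule was compared in a joint edgeR fit of the 48 libraries of each schedule, in which each combination of schedule and genotype had its own rhythm. The rhythm of 7 of the 10 genes differed between schedules in controls (53.6% of all genes) and that of 8 in the knockout (49.5%). The 7 were Fgf21, Igfbp1, Igfbp2, Igfbp4, Igfals, Inhbe and Lepr, and the 8 were Fgf21, Igf1, Igfbp1, Igfbp4, Igfals, Fst, Inhbe and Gdf15. Reverse-phase minus ad libitum, the log2 range was larger by 1.33 for Fgf21, 1.70 for Inhbe and 1.80 for Lepr in controls, and by 2.72 for Fgf21 and 1.75 for Inhbe in the knockout. The range of Igfbp4 was smaller in controls, at -0.63, and that of Fst smaller in the knockout, at -1.36. The Fgf21 call in controls was lost without replicate 2 of every group, with a difference in log2 range of 0.09 (adjusted p = 0.456). The Lepr call in controls was lost without replicate 2 of every group (adjusted p = 0.263, difference in log2 range -0.04), and without control ZT 22 replicate 2 alone the difference was 0.43 and still called. The Igfbp2 call in controls was lost without replicate 2 (0.117) or 3 (0.366) of every group, without reverse-phase control ZT 22 replicate 2 (0.167) and without the libraries that stood apart (0.0542). The schedules were separate tables of different depth, and other differences between them cannot be told apart from feeding.

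Lists of genes around the axis were counted in the same fits, with the median over all genes tested at -0.01 (log2) in both liver tables. Of 15 tested genes of growth hormone receptor and IGF signalling, 3 were higher and 0 lower ad libitum and 4 of 16 higher and 0 lower under reverse-phase feeding, with medians of 0.02 and 0.11. Over all genes 13.5% were called higher and 13.7% lower ad libitum, and 12.7% and 14.1% in reverse-phase liver, the shares against which this and the following lists are to be read. Irs2, an insulin receptor substrate, rose by 0.94 ± 0.17 (log2, SE, edgeR adjusted p = 4.49e-05) ad libitum and by 1.19 ± 0.26 (0.000354) in reverse-phase liver. Igfbp3, the main carrier of IGF-1 in blood and made by non-parenchymal liver cells, rose by 0.53 ± 0.10 and 0.48 ± 0.12. Igfbp7 rose by 0.38 ad libitum and was called higher under reverse-phase feeding too. Stat5b, which mediates growth hormone action on Igf1, rose by 0.22 under reverse-phase feeding.

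Of 12 genes for FGF21 receptors and transcriptional control, 2 were higher and 5 lower ad libitum and 1 higher and 4 lower under reverse-phase feeding. Ppara, the fasting-activated nuclear receptor known to induce Fgf21, fell by 0.39 under both schedules (edgeR adjusted p = 0.00045 and 0.00023). Fgf1 fell by 0.35 and 0.37, and Mlxipl, encoding the carbohydrate-responsive factor ChREBP, fell by 0.31 ad libitum. Fgfr2 rose by 0.40 under reverse-phase feeding and was called higher ad libitum too. Of 14 ATF4 and CHOP stress targets, 2 were higher and 3 lower ad libitum and 2 higher and 2 lower under reverse-phase feeding. The serine synthesis gene Psat1 fell by 1.10 and asparagine synthetase Asns by 0.91 ad libitum, while Trib3 rose by 0.48 and 1.02. Under reverse-phase feeding Atf5 rose by 0.53 and Atf4 fell by 0.27, and both were called in the same direction ad libitum.

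Of the activin and inhibin genes, 2 of 13 were higher and 2 lower ad libitum and 1 of 14 higher and 2 lower under reverse-phase feeding. Fstl1, a follistatin-like secreted protein, rose by 0.64 and 0.35 (log2), Inhbb rose by 0.61 ad libitum, and the receptor gene Acvr2b fell by 0.50 ad libitum. Under reverse-phase feeding Inhba fell by 0.80 and Inhbc by 0.26, and Inhbc was called lower ad libitum too. Of 9 leptin receptor signalling genes, 1 was higher and 3 lower ad libitum and 1 higher and 1 lower under reverse-phase feeding. Leprotl1 rose by 0.26 under both, Sh2b1 fell by 0.21 and Stat3 by 0.19 ad libitum, and Leprot fell by 0.15 under reverse-phase feeding. Of other secreted hepatokines, 5 of 18 were higher and 4 lower ad libitum and 4 of 19 higher and 6 lower under reverse-phase feeding. Enho, which encodes adropin, fell by 0.91 ± 0.12 and by 1.65 ± 0.15, and Serpinb1a fell by 0.60 and 1.03. Itih3 rose by 0.50 ad libitum and was called higher under reverse-phase feeding too. Gpnmb rose by 1.63 under reverse-phase feeding. The stellate and endothelial marker levels given above also differed between genotypes, and their part in these lists was not tested.

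In isolated cells, values are the deposited quantile-normalised signal, tested with limma on log2(signal + 1), which understates the change of low genes. Kupffer markers dominated the Kupffer libraries, with a summed signal of 158690 to 188207 beside 8963 to 16389 for endothelial markers, and endothelial markers summed to 80083 to 115187 in the endothelial libraries. Hepatocyte markers were also present, at 8775 to 127023 in endothelial and 6173 to 76398 in Kupffer libraries, the highest endothelial value being above every endothelial marker sum. The endothelial libraries also held Kupffer markers at 7112 to 24545 and stellate markers at 15276 to 32680, and the part of any of these in the endothelial values below, Igf1 included, was not tested. Genes were therefore also set against Alb: the median ratio of a gene to Alb in the cells over that in ad libitum liver of the same genotype. The cell medians cover 4 ZTs and the liver medians 8, and the feeding of the mice used for cells is not stated.

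In control libraries the median Lepr ratio was 967 times that of liver in endothelial cells and 238 times in Kupffer cells. For Igf1 it was 40.6 times in Kupffer and 1.99 times in endothelial cells, for Igfbp4 8.96 times in endothelial cells and for Gdf15 10.9 times in Kupffer cells. The Gdf15 signal was low, however, at 0 to 11.3 in Kupffer controls, and above 0 in 10 of 12 libraries. The ratio was below 1 for Igfbp2, at 0.264 and 0.316, and for Inhbe, at 0.114 and 0.256, and it was 0.491 and 1.06 for Igfals. Fgf21 was listed at 0 in every control library of both cell types, and Fst in every Kupffer control library.

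No gene of the 10 was called for genotype in either cell type, where 0.0319% of 12523 endothelial genes were called (0.024% higher and 0.00799% lower) and 0.0244% of 12270 Kupffer genes (0.0163% higher and 0.00815% lower). Tested were 6 of the 10 genes in each, since Fgf21, Fst and Inhbe passed the filter in neither, nor Gdf15 in endothelial and Igfbp1 in Kupffer cells. Lepr ran from 282 to 432 in endothelial controls, with a median of 348, and from 221 to 484 in the knockout, with a median of 443. Its difference was 0.21 ± 0.10 (log2, SE, limma adjusted p = 0.913). In Kupffer cells Lepr ran from 43.0 to 175 in controls and from 63.2 to 387 in all but 1 knockout library, which had 2103 at ZT 22, and the difference was 0.94 ± 0.45 (adjusted p = 1), or 0.59 without it. At an unadjusted p under 0.05, 1 of the tested genes passed in endothelial cells, Lepr (0.0407), and 0 in Kupffer cells, where Lepr had 0.0502.

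Igf1 was rhythmic in Kupffer cells of both genotypes. At ZT 4 the Kupffer controls had 5859, 6739 and 5601 and at ZT 16 they had 3213, 3778 and 3758, which did not overlap. The knockout had 5534, 4680 and 5998 at ZT 4 and 3363, 4121 and 3150 at ZT 16. The Igf1 range was 1.81-fold with a peak at ZT 5.83 ± 0.64 (SE) in controls (limma adjusted p = 0.006, 1.96% of genes called) and 1.62-fold with a peak at ZT 5.93 ± 0.79 in the knockout (0.0315, 1.81% called). The knockout call was lost without the 4 libraries whose length trend stood apart from the whole table, replicates 2 and 3 of both genotypes at ZT 4 (0.0637), and in 3 of 24 fits without 1 library. No rhythm difference between genotypes was called for any Kupffer gene, nor for any of the 10 genes in endothelial cells (2.04% of genes).

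Igfbp1 in endothelial cells was high at ZT 4 and would not have passed the filter on low values without that time, so its rhythm is described without a test. The controls had 11.8, 15.8 and 14.8 at ZT 4 and 0, 1.53 and 0 at ZT 16, and the knockout had 18.6, 32.5 and 27.7 at ZT 4. All 3 knockout libraries lay above controls at ZT 4. Over all endothelial pairs of gene and ZT, the knockout lay wholly above in 8.79% and wholly below in 9.44%, and over all Kupffer pairs in 4.72% and 4.64%. The control Igfbp1 ratio to Alb was 1.64 times that of liver and the knockout ratio 0.789 times. These medians cover unlike sets of times, 4 ZTs in cells and 8 in liver. Endothelial Igfbp1 was above 0 in 9 of 12 control and 10 of 12 knockout libraries. Igf1 in the endothelial knockout gave a 2.49-fold range (limma adjusted p = 0.0442, beside 13.2% of genes called), lost in 18 of 24 fits without 1 library, and in controls a 2.26-fold range that was not called (0.0942, beside 6.13%), but was called without the libraries that stood apart (0.0386).

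**Figure D5:**
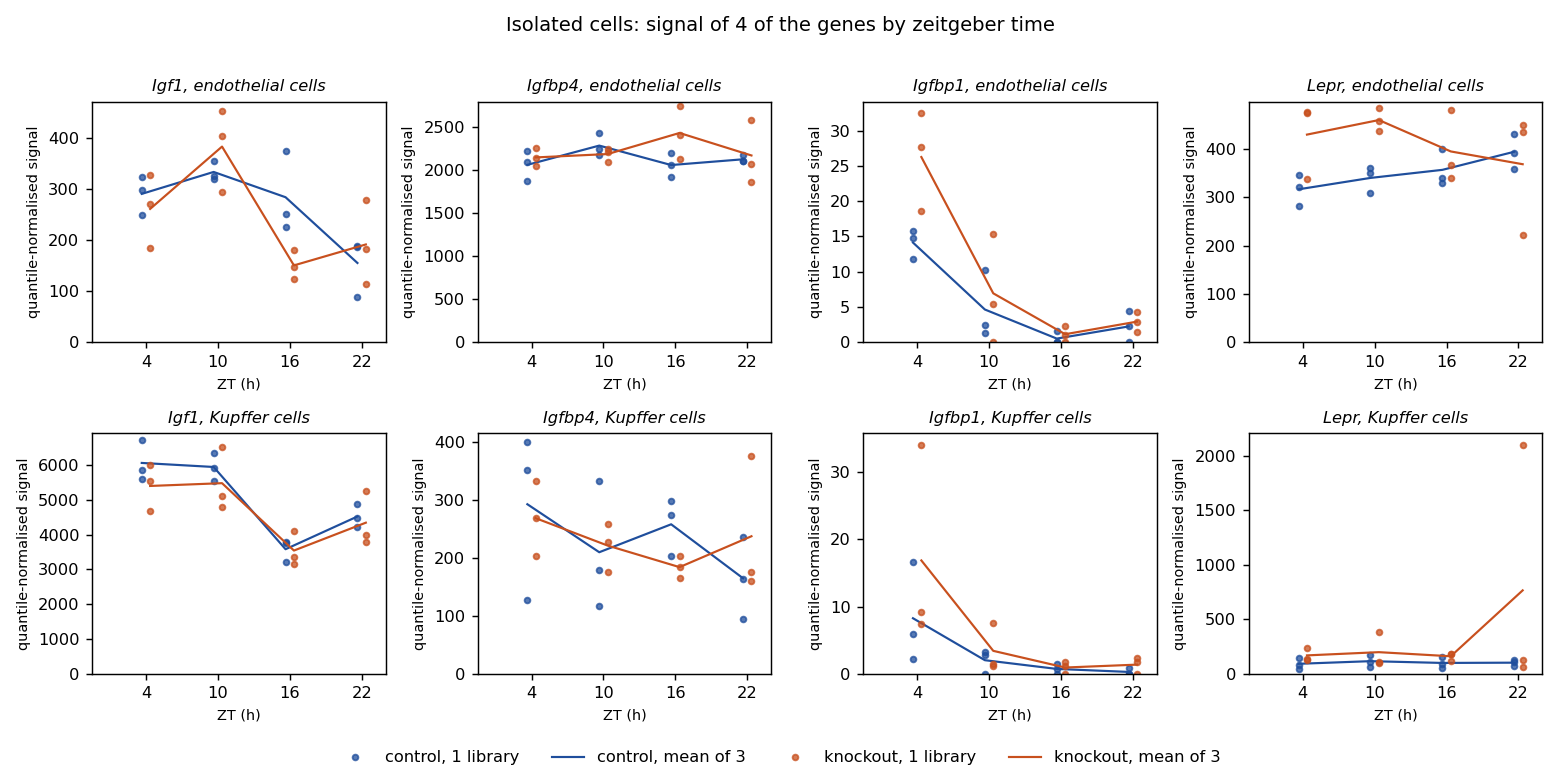
Quantile-normalised signal (y axis, from 0) of 4 of the genes against zeitgeber time in hours (x axis) in endothelial and Kupffer cells, with 1 point per library and lines through the means of 3 libraries for control and knockout. Igf1 in Kupffer cells had its lowest ZT 4 value at 4680 and its highest ZT 16 value at 4121, and 1 Kupffer knockout library had a Lepr signal of 2103.

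The genes whose pattern was most like each of the 10 were ranked by Pearson r of log2(normalised CPM + 1) over the 32 liver group means, centred within each schedule, among 11805 genes. These r describe points that share groups, feeding and time of day. The group means include single high reverse-phase libraries, such as 34.4 normalised CPM for Fgf21 in the knockout and 33.4 for Lepr in controls. The r without those libraries were not computed. Igfbp2 was closest to Cyp2c44 (0.906) and Fkbp11 (0.862), Igfbp4 to Vdac2 (0.905) and Becn1 (0.879), and Igfbp1 to Tgif1 (0.845) and Fbxo32 (0.826). Fgf21 was closest to Ranbp10 (0.837) and Mturn (0.792), Inhbe to Gse1 (0.861), and Igfals to Mrto4 (0.860) and its neighbour Nubp2 (0.853). Igf1 was closest to Ranbp1 (0.820) and Ndufa8 (0.8003), Lepr to Cntrl (0.837) and Sec23a (0.812), and Fst to Serpina7 (0.836) and Lrrc42 (0.806). Gdf15 had the weakest matches, Rhod (0.695) and Prpf19 (0.685).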

How the data were processed

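RNA had been extracted with Trizol and RNeasy, made into TruSeq libraries and sequenced on a Genome Analyzer, per the labels' protocols. STAR, HOMER and build mm9 are named, without versions, in the submitters' processing notes. The authors' liver tables hold estimated counts in multiples of 0.5, of which 29.5% (ad libitum) and 31.9% (reverse-phase) of values were not whole, rounded here to whole numbers. The authors' cell tables hold a signal that was quantile normalised: all columns share 1 set of sorted values, and their depth is unknown. Transcript rows (34600) were reduced to 24421 symbols, keeping the row with the largest mean.

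Counts were fitted with edgeR 4.0.16 (R 4.3.3; trimmed mean normalisation, filterByExpr, robust quasi-likelihood test), as a mean, cosine and sine of 24 h per genotype, and with time as a factor for single ZTs. Cell signals were tested with limma 3.58.1 on log2(signal + 1) for genes of at least 10 in at least 3 libraries. On simulated data the count fit was tried for a genotype effect and a control rhythm, and the limma fit for a genotype effect alone. Rhythm differences between genotypes and rhythms in cell signals were not simulated. Ranges are peak over trough of the fitted curve, and a range difference is given in log2. Alternatives were DESeq2 1.42.0, its size factors, filters, pseudocounts, a replicate block, a second harmonic and fits without libraries. The members and lists were chosen with earlier results of these data known. In each list up to 3 called genes with the largest change per liver table were named. Counting is not stated to use strand. The genotype columns are headed GFP and CRE, so what was delivered cannot be told apart from genotype. No pair of libraries was identical, and every column was mapped to a sample or group. For each of the 10 genes the 2 most alike genes were named, except that the second for Inhbe is not reported here.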

Additional observations from a re-analysis of the deposited data

Results flagged for a closer look

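The rhythm of Fgf21 differed between genotypes under reverse-phase feeding (edgeR adjusted p = 0.0367), by a test of the difference itself. The call was lost with a second harmonic, without the low-count filter and in 14 of 48 fits without 1 library, and the difference in log2 range was 1.18 in place of 2.22 without knockout ZT 22 replicate 1. No other of the 10 genes was called.

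The remaining results here are rhythms that differed between the feeding schedules within a genotype, by the joint edgeR fit. In controls the adjusted p-values were 0.00925 for Fgf21, 0.00037 for Igfbp1, 0.0253 for Igfbp2, 2.4e-13 for Igfbp4, 2.06e-06 for Igfals, 1.94e-10 for Inhbe and 0.000486 for Lepr. In the knockout they were 5.11e-12 for Fgf21, 0.0143 for Igf1, 1.8e-05 for Igfbp1, 4.59e-05 for Igfbp4, 3.85e-05 for Igfals, 0.00971 for Fst, 6.21e-09 for Inhbe and 0.0113 for Gdf15. Of these, Fgf21, Lepr and Igfbp2 in controls and Igf1, Fst and Gdf15 in the knockout were not called in at least 1 fit that left out a replicate number or a library. Whether a gene's schedule difference itself differs between genotypes was not tested.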

How the results depend on the processing

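Of 15225 gene results under alternatives, 15011 kept their side of the threshold, 134 lost and 80 gained a call, and 0 were labelled reversed. A reversal was counted only for genotype effects and their schedule differences, and only where 1 of the 2 fits made a call. Changes of sign in uncalled results, and of peak time in rhythms, were not counted. Without the low-count filter, 2 in place of 4 ad libitum single-ZT differences of the 10 genes were called, 1 in place of 2 under reverse-phase feeding, and 0 in place of 1 rhythm difference between genotypes. That last count was also 0 with a replicate block and with a second harmonic. Without libraries that stood apart, 1 reverse-phase single-ZT difference was called, and DESeq2 called 4. With a mean of at least 1 CPM or in DESeq2, 2 of the 10 were higher under reverse-phase feeding in place of 1. DESeq2 called 329 in place of 209 genes for reverse-phase rhythm differences, and 31 higher and 37 lower in place of 12 and 15 for schedule by genotype.

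In endothelial cells the genes lower in the knockout were 1, with 2 at a pseudocount of 5 and 0 at a mean of at least 50 or without libraries apart, and those higher 3, with 0 at a mean of at least 50. Control rhythms were 768 genes, with 486 unfiltered and 1265 without libraries apart. Rhythm differences were 256, with 62 unfiltered, 426 at a mean of at least 50, 144 with a replicate block and 122 without libraries apart. Of the 10 genes, control rhythms were 1, with 0 at a mean of at least 50 and 2 without libraries apart. Knockout rhythms of the 10 were 2, with 1 at a mean of at least 50. Igfbp1 is counted in both and would not have passed the filter without ZT 4, so its rhythm is not read as a call. In Kupffer cells the genes higher were 2, with 1 at a pseudocount of 0.5, with a replicate block or without libraries apart and 0 at a mean of at least 50. Those lower were 1, with 0 at a mean of at least 50 or without libraries apart from the whole table. Without the latter, rhythms were 118 in place of 241 genes in controls and 74 in place of 222 in the knockout, or 125 unfiltered, and the 10 genes' knockout rhythms 0 in place of 1, as unfiltered.

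Leaving out 1 library, the 10 genes lower ad libitum numbered 1 to 2, single-ZT calls 2 to 4 ad libitum and 1 to 3 in reverse-phase liver, genes of the 10 higher under reverse-phase feeding 1 to 2 and rhythm differences 0 to 1. In endothelial cells genes higher numbered 1 to 6, lower 0 to 3, control rhythms 248 to 1165, knockout rhythms 738 to 2442, rhythm differences 0 to 1333, and the 10 genes' rhythms 0 to 1 in controls and 1 to 2 in the knockout. These last counts were made with Igfbp1 included, whose endothelial rhythm is not read as a call. In Kupffer cells genes higher numbered 1 to 4, lower 1 to 3, control rhythms 112 to 320, knockout rhythms 57 to 310 and the 10 genes' knockout rhythms 0 to 1. For schedule by genotype the counts were 3 to 14 higher and 3 to 22 lower, and for schedule differences in the knockout 4411 to 6668. The causes were not tested.

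Deviations from the group mean in same-numbered control and knockout libraries correlated above 0.1 in 2 of 24 ad libitum and 6 of 24 reverse-phase pairs. In cells this held for 1 of 12 endothelial and 4 of 12 Kupffer pairs. The median r of same-numbered and of other pairs was -0.004 and -0.007 ad libitum and 0.031 and 0.008 in reverse-phase liver. It was 0.018 and -0.005 in endothelial and 0.039 and -0.032 in Kupffer cells. Whether replicate numbers pair the samples was not tested further. Of the genes' results, the replicate block moved 3 across the threshold: Fgf21 reverse-phase rhythm difference (0.0557) and Igfbp2 at ZT 1 ad libitum (0.054) were not called, and Igf1 reverse-phase control rhythm (0.0343) was. The choice of libraries that stood apart from the whole table was made after seeing the data. Depth limits Fgf21, Fst and Lepr ad libitum.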
